A study of Homo sapiens with 6 samples.

Results

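Cholesterol and fatty acid synthesis genes were examined in OVCAR-3 ovarian carcinoma cells with and without an shRNA against COX-1. The set was a list of 32 gene symbols covering the regulators of the pathway, the enzymes that make cholesterol, a sterol carrier, and the enzymes that make and desaturate fatty acids. Of these, 31 were found by symbol among the 34811 genes counted, and all 31 were among the 17309 genes tested. SC4MOL was present under its later symbol, MSMO1, and is given beside the others but is not in their counts.

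Gene expression was measured by RNA-seq in 2 stable lines derived from OVCAR-3, an established human ovarian carcinoma line, with 3 libraries of each. OV3/SCR cells (clone #1) carried a scrambled shRNA and OV3/COX1KD cells (clone #2) an shRNA against COX-1, the prostaglandin-forming enzyme encoded by PTGS1, both in the pRS HuSH-29 plasmid and both selected with puromycin. All cells grew in RPMI-1640 medium with 10% fetal bovine serum, which supplies sterols and fatty acids, and the replicates were separately grown populations of each line. Each condition was 1 clone, so the shRNA and the clone cannot be told apart, and the p-values measure the spread between cultures of these clones.

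Library totals lay between 25291505 and 27391538 counts. PTGS1 had 713, 658 and 641 counts in OV3/SCR and 456, 486 and 501 in OV3/COX1KD replicates 1, 2 and 3, a log2 fold change of -0.45 (SE, its standard error, 0.057, edgeR FDR = 1.34e-06), with no overlap between the conditions. Here and throughout, the edgeR FDR is the p-value of edgeR's quasi-likelihood test after Benjamini-Hochberg adjustment over all 17309 genes, and a gene is said to rise or fall, or to be called, where it is under 0.01. All 10 markers of ovarian and Mullerian epithelium were abundant, at 2469 to 62802 counts, and all 10 were called: 8 were higher in OV3/COX1KD, with log2 fold changes from 0.32 (KRT19) to 1.36 (MUC16), and PAX8 (-0.76) and KRT7 (-0.14) were lower. Leukocyte markers had at most 16 counts and the 3 endothelial markers counted had at most 52, while the fibroblast collagen COL1A1 had 258 to 270 counts in OV3/SCR and 143 to 160 in OV3/COX1KD, with COL3A1 and LUM at 0 in every OV3/SCR library. Of the markers of classical lipogenic cells, ALB was at 0 to 2 counts and ADIPOQ at 2 to 12, while APOA1 had 108 to 128 counts in OV3/SCR and 265 to 292 in OV3/COX1KD, and PLIN1 19 to 29 and 55 to 83. The part of these marker differences in the results was not tested. In bulk RNA, fewer cells of a type and less RNA per cell cannot be told apart.

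Cells control these genes mainly through the SREBP transcription factors, the products of SREBF1 and SREBF2, which are made as precursors in the membrane of the endoplasmic reticulum. SCAP escorts the precursors to the Golgi, where proteases release the active factor, and INSIG proteins hold SCAP back when sterols are plentiful. SREBF1 products act mainly on fatty acid genes and SREBF2 on cholesterol genes, often at sterol regulatory elements together with NF-Y, which binds CCAAT words, and Sp1, which binds GC boxes.

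The proximal promoters of 6 genes show how such words are laid out. SREBF2 is shown because it held the sterol element word searched here. INSIG1, TM7SF2 and SCD are shown because they held a CCAAT word and their mRNA levels rose by more than 0.5 on the log2 scale. ACSS2 and ACACA also met both of these criteria and are not shown. SREBF1 is shown because it also rose by more than 0.5 but held neither word in the window searched, as was the case for PMVK and CYP51A1. Any SREBF1 transcript start outside that window was not searched. MVK is shown because it carried many CCAAT words while its level was not called. NSDHL, with 5 CCAAT words, and MVD, with 3, were also not called and are not shown. Each run is the 250 bases before the RefSeq transcript start in GRCh38.p14, 5′ to 3′, with the word TCACNCCAC and the word CCAAT, on either strand, in capitals. The positions are chr22:41832855-41833104 for SREBF2, chr7:155297628-155297877 for INSIG1, chr12:109573544-109573793 for MVK, chr11:65111622-65111871 for TM7SF2 and chr10:100346983-100347232 for SCD, all on the plus strand, and chr17:17836987-17837236 on the minus strand for SREBF1.
SREBF1: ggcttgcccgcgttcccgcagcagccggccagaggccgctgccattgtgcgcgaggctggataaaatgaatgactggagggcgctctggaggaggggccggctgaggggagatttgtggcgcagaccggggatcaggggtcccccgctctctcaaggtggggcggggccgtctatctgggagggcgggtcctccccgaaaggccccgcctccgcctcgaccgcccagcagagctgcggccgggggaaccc
SREBF2: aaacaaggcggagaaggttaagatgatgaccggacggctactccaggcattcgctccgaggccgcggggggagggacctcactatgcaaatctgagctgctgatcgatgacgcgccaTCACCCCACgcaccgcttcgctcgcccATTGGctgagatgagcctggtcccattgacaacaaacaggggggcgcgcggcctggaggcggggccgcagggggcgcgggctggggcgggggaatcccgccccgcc
INSIG1: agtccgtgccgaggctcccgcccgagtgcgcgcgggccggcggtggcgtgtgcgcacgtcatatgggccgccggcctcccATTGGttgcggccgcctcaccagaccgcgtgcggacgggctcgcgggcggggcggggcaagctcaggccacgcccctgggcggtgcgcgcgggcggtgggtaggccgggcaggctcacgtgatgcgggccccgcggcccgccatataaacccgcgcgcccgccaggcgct
MVK: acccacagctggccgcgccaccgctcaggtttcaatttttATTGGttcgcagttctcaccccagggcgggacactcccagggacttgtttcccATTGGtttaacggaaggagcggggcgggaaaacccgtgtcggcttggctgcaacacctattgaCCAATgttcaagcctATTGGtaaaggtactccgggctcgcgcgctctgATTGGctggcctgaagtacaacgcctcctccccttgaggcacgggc
TM7SF2: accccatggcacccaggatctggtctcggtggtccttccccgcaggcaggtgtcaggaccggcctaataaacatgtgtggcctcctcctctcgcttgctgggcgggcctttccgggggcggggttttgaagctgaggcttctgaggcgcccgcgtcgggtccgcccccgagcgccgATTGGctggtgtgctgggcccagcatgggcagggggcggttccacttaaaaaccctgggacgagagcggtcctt
SCD: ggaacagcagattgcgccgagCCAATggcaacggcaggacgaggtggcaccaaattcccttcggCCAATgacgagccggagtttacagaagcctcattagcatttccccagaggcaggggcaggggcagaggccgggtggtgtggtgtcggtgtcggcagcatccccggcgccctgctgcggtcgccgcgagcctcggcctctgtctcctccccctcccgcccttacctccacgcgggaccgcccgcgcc

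A RefSeq window, from 250 bases before to 50 after a transcript start, was at hand for 27 of the 31 genes. The sterol element word TCACNCCAC occurred in 1 of the 27, SREBF2, where it began 133 bases before the start. It occurred in 1.53% of the 10165 tested genes with a window. The CCAAT word was present in 20 of 27 genes (74.1%), against 43.2% of the tested genes with a window. The GC box word GGGCGG was present in 26 of the 27 (96.3%), against 76.1%, and the E-box word CACGTG in 4 (14.8%), against 12.2%. Each word was searched on both strands, and the words can share only end letters with one another. These matches are letters in a window and not measured binding, and windows with a word included genes that were called (SCD, with CCAAT words beginning 229 and 186 bases before the start) and genes that were not (MVK, with 5 CCAAT words).

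Most of the genes were higher in OV3/COX1KD than in OV3/SCR. Of the 31 tested, 22 rose and 2 fell at an edgeR FDR under 0.01, and 7 were not called. Over all tested genes the share called higher was 25.8% and the share called lower 22.1%, while among the 31 genes the shares were 71.0% and 6.45%. The list was chosen with earlier results of these data known, so these shares describe it and are not an independent test. With a log2 fold change beyond 0.5 as well, 8 of the 31 rose (SREBF1, INSIG1, PMVK, CYP51A1, TM7SF2, ACSS2, ACACA and SCD) and 1 fell (FADS2), against 9.87% and 10.0% of all tested genes. The median log2 fold change of the 31 genes was 0.29, and that of all tested genes was -0.0087. The normalized levels of the conditions did not overlap for 26 of the 31 genes, against 63.2% of all tested genes.

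Abundant genes were called more often than others, where abundance is read in CPM, counts scaled by the library total after edgeR's TMM correction for composition. Among the 6186 tested genes whose mean log2 CPM was 5 or more, 40.3% were called higher and 26.9% lower, with a median log2 fold change of 0.057. The normalized levels of the conditions did not overlap for 4771 of these 6186 genes, so lack of overlap was also common among abundant genes. With MSMO1 the counts were 23 higher and 2 lower of 32. Scaling by total counts alone moved the background of all tested genes from 4473 higher and 3820 lower to 3466 higher and 4978 lower, and left 20 of the 31 genes higher and 3 lower. Over all the settings tried, between 20 and 22 were higher and 2 or 3 lower.

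**Figure D1:**
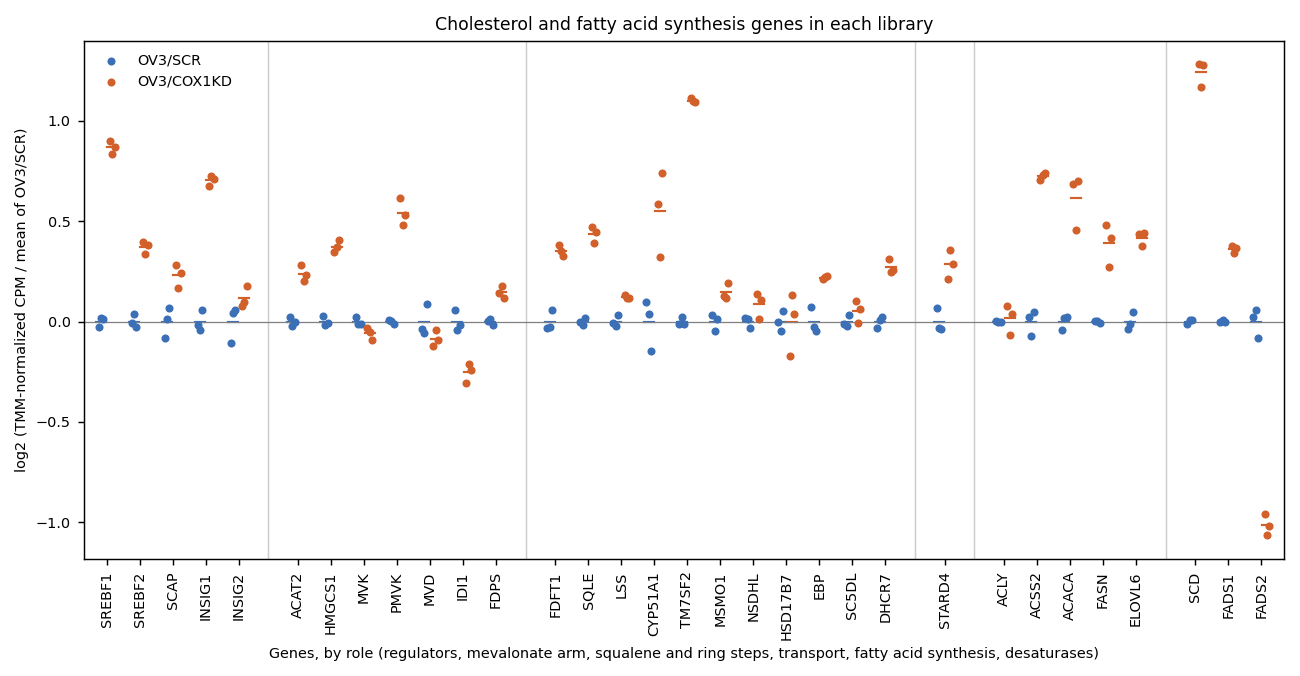
Each point is 1 library (3 per condition, OV3/SCR and OV3/COX1KD), the horizontal axis lists the genes by role, and the vertical axis is the log2 ratio of the TMM-normalized CPM to the OV3/SCR mean of that gene. SCD and TM7SF2 stand highest in OV3/COX1KD, with log2 fold changes of 1.24 and 1.10, and FADS2 lowest with -1.01.

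Of the 5 regulators, 4 rose and INSIG2 was not called, with a median log2 fold change of 0.37. SREBF1, which encodes SREBP-1 (ENSG00000072310, chr17:17713713-17740316 of GRCh37), had 6501, 6547 and 6473 counts in OV3/SCR and 11679, 11115 and 12089 in OV3/COX1KD. The OV3/COX1KD libraries all lay far above the OV3/SCR libraries. In TMM CPM the mean was 249 ± 4.03 for OV3/SCR and 454 ± 10.2 for OV3/COX1KD (SD over 3 libraries), a log2 fold change of 0.87 (SE 0.029, edgeR FDR = 5.13e-15).

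SREBF2, which encodes SREBP-2, had 4938, 4983 and 4721 counts in OV3/SCR and 6171, 5902 and 6472 in OV3/COX1KD, a log2 fold change of 0.37 (SE 0.031, edgeR FDR = 3.35e-09). Both factors therefore had more mRNA in every OV3/COX1KD library than in any OV3/SCR library. The ratio of SREBF1 to SREBF2 counts within a library was 1.32, 1.31 and 1.37 in OV3/SCR and 1.89, 1.88 and 1.87 in OV3/COX1KD, a rise of 1.41-fold.

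INSIG1, which encodes a retention protein for SCAP, had 1523, 1460 and 1551 counts in OV3/SCR and 2322, 2387 and 2514 in OV3/COX1KD. The log2 fold change was 0.70 (SE 0.038, edgeR FDR = 4.62e-12). Its paralog INSIG2 had 332, 360 and 360 counts in OV3/SCR and 356, 359 and 403 in OV3/COX1KD, a log2 fold change of 0.12 with a 95% confidence interval of -0.028 to 0.27 (edgeR FDR = 0.156). The normalized INSIG2 levels of the conditions did not overlap, but the difference did not pass the threshold. The INSIG1 to INSIG2 count ratio was 4.32 ± 0.266 (SD, n = 3) in OV3/SCR and 6.47 ± 0.210 in OV3/COX1KD, with no overlap. SCAP, the escort protein, rose from 145 ± 7.47 to 170 ± 6.68 TMM CPM, a log2 fold change of 0.23 (SE 0.039, edgeR FDR = 3.95e-05).

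The mevalonate arm, which builds isoprenoid units from acetyl-CoA, held genes that moved in both directions. Of its 7 genes 4 rose, 1 fell and 2 were not called, and the median log2 fold change was 0.15. HMGCS1, the HMG-CoA synthase, was its most abundant transcript, with 11628, 11013 and 11005 counts in OV3/SCR and 13691, 13856 and 15099 in OV3/COX1KD. The conditions did not overlap, and the log2 fold change was 0.37 (SE 0.029, edgeR FDR = 1.05e-09). A lncRNA on the opposite strand covers 37.7% of the HMGCS1 exon length, but it had only 11 to 23 counts per library.

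PMVK, the phosphomevalonate kinase, showed the largest rise of the arm. It had 751, 730 and 717 counts in OV3/SCR and 1078, 980 and 1075 in OV3/COX1KD, a log2 fold change of 0.54 (SE 0.049, edgeR FDR = 1.10e-08). The preceding kinase, MVK, had 744, 710 and 705 counts in OV3/SCR and 677, 665 and 688 in OV3/COX1KD, and its log2 fold change of -0.057 was not called (95% confidence interval -0.16 to 0.048). MVD, the decarboxylase that follows PMVK, was at -0.084 (interval -0.19 to 0.020) and was not called. PMVK was thus called and the enzymes on either side of it were not, and the differences between them were not tested.

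IDI1, the isomerase that interconverts the basic isoprenoid units, was the gene of this arm that fell. It had 2171, 1986 and 2000 counts in OV3/SCR and 1595, 1694 and 1766 in OV3/COX1KD, with no overlap. The log2 fold change was -0.25 (SE 0.039, edgeR FDR = 1.72e-05), a level of 83.9% of the control. The antisense gene IDI2-AS1, which covers 15% of the IDI1 exon length, had 0 to 7 counts.

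The other genes that rose in the arm were ACAT2 and FDPS. ACAT2, the cytosolic acetoacetyl-CoA thiolase, rose by 0.24 on the log2 scale (SE 0.046, edgeR FDR = 0.000165), and 17.2% of its exon length lies over TCP1 on the opposite strand, which had 4535 to 4890 counts in OV3/SCR and 3992 to 4317 in OV3/COX1KD. FDPS, the farnesyl diphosphate synthase, had 5048, 4969 and 4838 counts in OV3/SCR and 5249, 5358 and 5463 in OV3/COX1KD, a log2 fold change of 0.15 (SE 0.030, edgeR FDR = 0.000345) that was not called with total count scaling (0.068, FDR = 0.0654). RUSC1-AS1, antisense over 18.6% of the FDPS exon length, had 1415 to 1581 counts in OV3/SCR and 681 to 1106 in OV3/COX1KD, and whether the counting used strand was not given in the sources used here. The FDPS pseudogenes had at most 8 counts each.

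In the steps from farnesyl diphosphate to cholesterol, 7 of 10 genes rose, none fell and 3 were not called, with a median log2 fold change of 0.25. TM7SF2, a sterol reductase that acts after lanosterol demethylation (ENSG00000149809, chr11:64879317-64883856 of GRCh37), changed most. It had 4278, 4279 and 4143 counts in OV3/SCR and 8804, 8667 and 9181 in OV3/COX1KD. The spread within each condition was small beside the gap, at 162 ± 2.22 against 347 ± 2.72 TMM CPM (SD over 3 libraries), a log2 fold change of 1.10 (SE 0.029, edgeR FDR = 9.93e-17).

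LBR, the lamin B receptor, carries the same reductase activity and was not called. The TM7SF2 to LBR count ratio was 2.16, 2.30 and 2.19 in OV3/SCR and between 4.76 and 5.14 in OV3/COX1KD, a 2.24-fold rise with no overlap.

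Both enzymes that make and oxidize squalene rose. FDFT1, the squalene synthase, had 3542, 3472 and 3648 counts in OV3/SCR and 4450, 4340 and 4540 in OV3/COX1KD, a log2 fold change of 0.35 (SE 0.033, edgeR FDR = 2.02e-08). SQLE, the squalene epoxidase and a rate-limiting enzyme, had 5177, 5009 and 5086 counts in OV3/SCR and 6774, 6395 and 7051 in OV3/COX1KD, a log2 fold change of 0.44 (SE 0.030, edgeR FDR = 2.53e-10). Neither gene overlapped between the conditions. LSS, the cyclase that follows them, had a smaller rise, with a log2 fold change of 0.12 (SE 0.030, edgeR FDR = 0.00171), and it was not called with total count scaling (0.044, FDR = 0.221).

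CYP51A1, the lanosterol demethylase, had only 132, 124 and 108 counts in OV3/SCR and 175, 145 and 206 in OV3/COX1KD. Its log2 fold change was 0.56 with the widest standard error of the genes that rose (0.12, edgeR FDR = 0.000480), and its lowest OV3/COX1KD library lay close to its highest OV3/SCR library. In the annotation used here 2 other protein-coding genes on the same strand cover 68.2% and 67.8% of the CYP51A1 exon length. Neither was among the genes counted, and whether an overlap lowered the CYP51A1 count was not tested. DHCR7, the reductase of the last step of 1 branch of the pathway, rose by 0.27 on the log2 scale (SE 0.031, edgeR FDR = 3.30e-07). EBP, the sterol isomerase, rose by 0.22 (SE 0.043, edgeR FDR = 0.000217). Another gene of the annotation, which was not among the genes counted, shares 36.4% of the EBP exon length.

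The remaining ring enzymes had log2 fold changes of 0.15 or less. MSMO1, the sterol methyl oxidase listed as SC4MOL, had 4459, 4116 and 4268 counts in OV3/SCR and 4489, 4438 and 4982 in OV3/COX1KD, a log2 fold change of 0.15 (SE 0.033, edgeR FDR = 0.000923), and was not called with total count scaling (0.068, FDR = 0.0938). NSDHL, the dehydrogenase acting with MSMO1, was not called, with a log2 fold change of 0.087 (95% confidence interval -0.0072 to 0.18). HSD17B7, the keto reductase of the same complex, was at 0.0050 (interval -0.22 to 0.23) on 126 to 155 counts per library, and its pseudogene HSD17B7P2 had 13 to 27. SC5DL, the sterol desaturase, was at 0.052 (interval -0.038 to 0.14). STARD4, a soluble carrier of cholesterol between membranes, had 1245, 1134 and 1121 counts in OV3/SCR and 1300, 1427 and 1445 in OV3/COX1KD and rose by 0.29 on the log2 scale (SE 0.046, edgeR FDR = 2.82e-05).

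Among the genes of acetyl-CoA supply and fatty acid synthesis, 4 of 5 rose and ACLY was not called, with a median log2 fold change of 0.42. ACLY and ACSS2 both supply acetyl-CoA to the cytosol. ACLY, the citrate lyase, had 3939, 3841 and 3807 counts in OV3/SCR and 3919, 3533 and 4040 in OV3/COX1KD, a log2 fold change of 0.019 (95% confidence interval -0.056 to 0.094). ACSS2, the acetyl-CoA synthetase that uses acetate, had 721, 660 and 713 counts in OV3/SCR and 1093, 1108 and 1187 in OV3/COX1KD, a log2 fold change of 0.73 (SE 0.048, edgeR FDR = 1.14e-10). The ACSS2 to ACLY count ratio was 0.181 ± 0.00799 (SD, n = 3) in OV3/SCR and 0.295 ± 0.0174 in OV3/COX1KD, a 1.63-fold rise.

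ACACA, the acetyl-CoA carboxylase that commits carbon to fatty acids, had 2458, 2498 and 2488 counts in OV3/SCR and 3838, 3262 and 4096 in OV3/COX1KD, a log2 fold change of 0.62 (SE 0.049, edgeR FDR = 1.62e-09). FASN, the fatty acid synthase, had 13565, 13274 and 13093 counts in OV3/SCR and 17864, 15368 and 18068 in OV3/COX1KD, a log2 fold change of 0.39 (SE 0.039, edgeR FDR = 4.69e-08). For both enzymes OV3/COX1KD replicate 2 was the lowest library of its condition but still lay above every OV3/SCR library. ELOVL6, the elongase of saturated chains, rose by 0.42 (SE 0.034, edgeR FDR = 2.04e-09).

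The desaturases held the largest rise and the largest fall of the whole set. SCD, the stearoyl-CoA desaturase that makes monounsaturated fatty acids (ENSG00000099194, chr10:102106990-102124583 of GRCh37), had 12096, 11979 and 11875 counts in OV3/SCR and 27996, 25743 and 29541 in OV3/COX1KD. Every OV3/COX1KD library was far above the OV3/SCR libraries. Mean TMM CPM was 458 ± 3.33 for OV3/SCR and 1083 ± 48.1 for OV3/COX1KD (SD over 3 libraries), a log2 fold change of 1.24 (SE 0.032, edgeR FDR = 7.97e-17). Its pseudogene SCDP1 had 3 to 8 counts in OV3/SCR and 10 to 21 in OV3/COX1KD.

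FADS1 and FADS2, which encode the desaturases of polyunsaturated fatty acids, went in opposite directions. In the annotation used here, FADS1 lies within the span of FADS2 on chromosome 11, on the opposite strand. FADS1 had 6822, 6717 and 6616 counts in OV3/SCR and 8378, 8159 and 8814 in OV3/COX1KD, a log2 fold change of 0.36 (SE 0.028, edgeR FDR = 1.12e-09). FADS2 (ENSG00000134824, chr11:61560452-61634826 of GRCh37) had 1880, 1882 and 1698 counts in OV3/SCR and 899, 833 and 914 in OV3/COX1KD, a log2 fold change of -1.01 (SE 0.046, edgeR FDR = 3.97e-13). The FADS2 level in OV3/COX1KD was 49.5% of the control, and no library of either gene lay in the range of the other condition. The FADS2 to FADS1 count ratio was 0.276, 0.280 and 0.257 in OV3/SCR and 0.107, 0.102 and 0.104 in OV3/COX1KD. The genes share 4.79% of the FADS1 exon length and 4.64% of the FADS2 exon length. Whether the counting used strand was not given, as for FDPS.

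**Figure D2:**
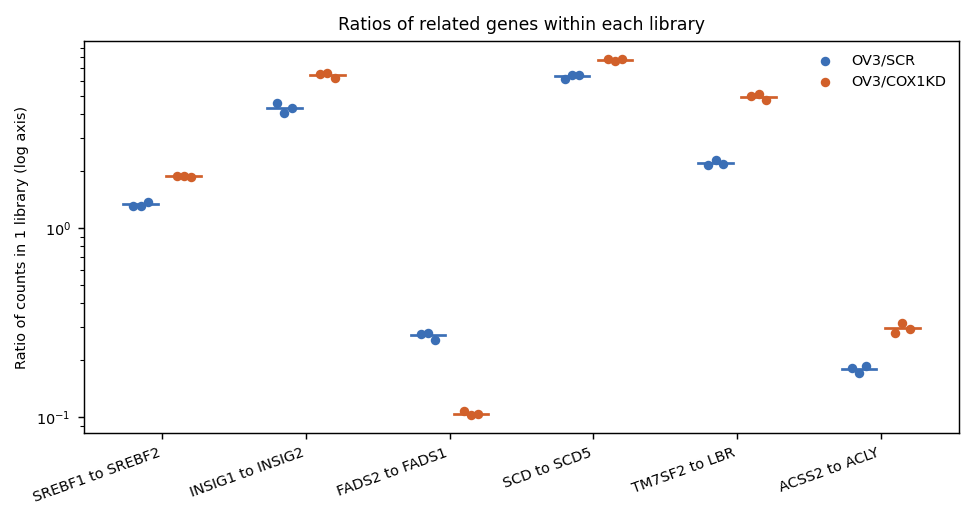
Ratio of the counts of 2 related genes within 1 library, on a log axis, with a point for each of the 3 libraries per condition and a line at the mean. No ratio overlaps between OV3/SCR and OV3/COX1KD, and FADS2 to FADS1 is the pair that is lower in OV3/COX1KD, at 0.104 against 0.271.

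These ratios do not depend on library scaling. They were chosen after the values were seen, and 6 were computed, the remaining one being SCD to its paralog SCD5 (6.37 ± 0.183 in OV3/SCR and 7.79 ± 0.141 in OV3/COX1KD, SD, n = 3). The exact two-sided permutation p of each ratio was 0.1, the smallest that 3 against 3 libraries allow, so none can pass 0.05.

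Levels were divided by kilobases of exon to compare different genes. The length was the union of all annotated exons of a gene, so the order depends partly on the annotation. On this scale SCD was the most abundant of the set in both conditions. Its level was 87.3 TMM-normalized CPM per kb in OV3/SCR and 206 in OV3/COX1KD. In OV3/SCR it was followed by HMGCS1 at 64.6 ± 1.07, MSMO1 at 57.3 ± 1.71, FASN at 54.5 ± 0.167, FDPS at 50.9 ± 0.481 and TM7SF2 at 47.4 ± 0.650 CPM per kb (SD, n = 3). In OV3/COX1KD, TM7SF2 stood next to SCD at 102 ± 0.798, ahead of HMGCS1 at 83.7 ± 1.73 and FASN at 71.6 ± 5.28. The lowest levels in OV3/SCR were those of CYP51A1 (1.11 ± 0.0966) and HSD17B7 (1.18 ± 0.0410), which did not differ beyond their spread.

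**Figure D3:**
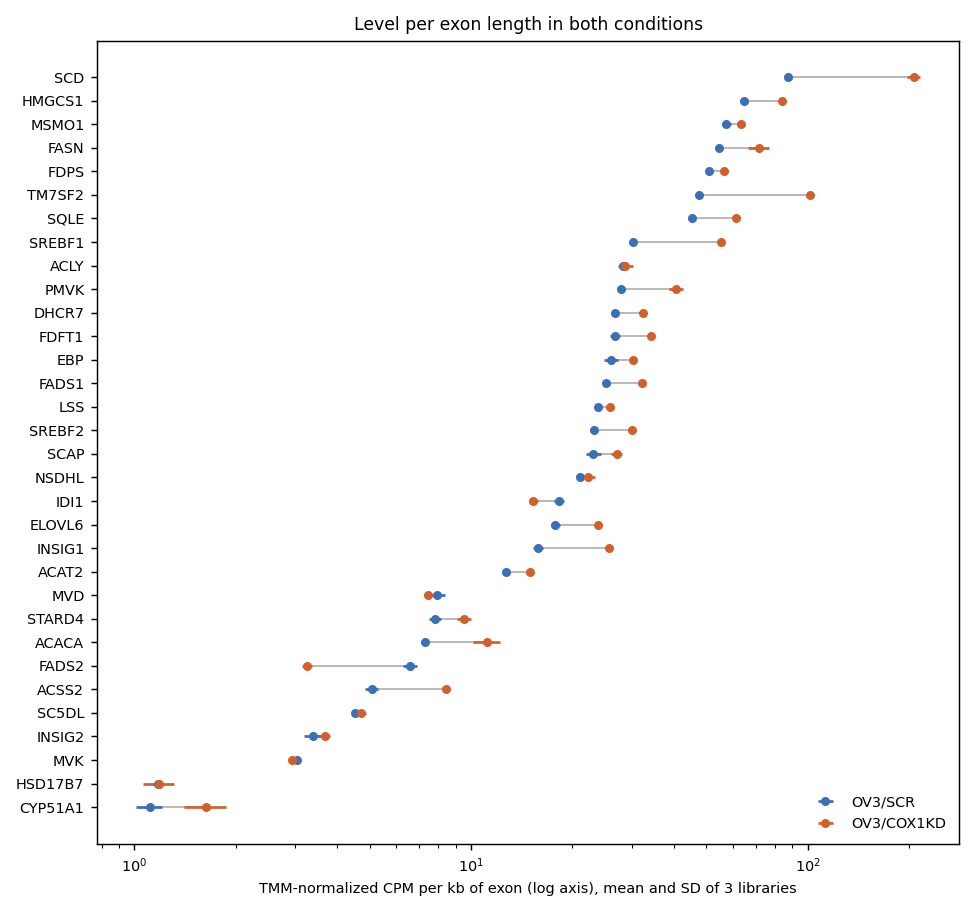
Mean TMM-normalized CPM per kb of exon (horizontal log axis) with the SD of 3 libraries, for each gene in OV3/SCR and OV3/COX1KD. SCD is at the top in both conditions, TM7SF2 moves from 47.4 to 102 CPM per kb, and FADS2 moves down from 6.58 to 3.26.

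The summed level of each group was also compared by library. The desaturases summed to 780, 790 and 781 TMM CPM in OV3/SCR replicates 1, 2 and 3 and to 1481, 1386 and 1474 in OV3/COX1KD. Fatty acid synthesis summed to 902, 906 and 912 in OV3/SCR and to 1237, 1097 and 1204 in OV3/COX1KD. The mevalonate arm summed to 833, 814 and 818 in OV3/SCR and to 961, 975 and 979 in OV3/COX1KD. No group sum overlapped between the conditions. OV3/COX1KD replicate 2 was the lowest OV3/COX1KD library for 17 of the 31 genes, including all 3 desaturases and 4 of the 5 genes of fatty acid synthesis, and it stood furthest from the other libraries of its condition over all genes, the chi-square per degree of freedom being 4.92 and 6.40 against them and 1.91 between them. Without it, 22 of the 31 genes were higher and 2 lower, as with it.

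**Figure D4:**
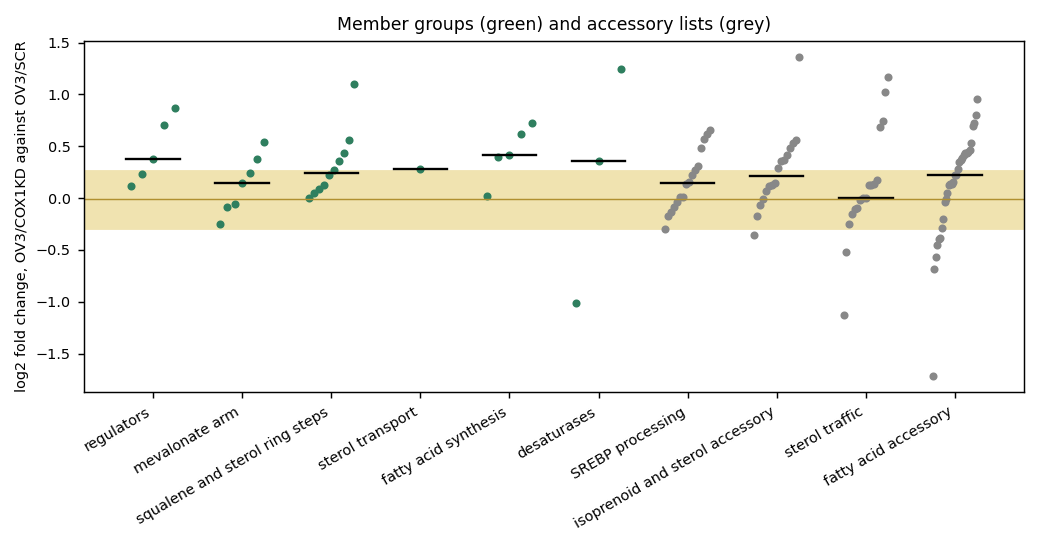
Log2 fold change (vertical axis) of each gene in the member groups (green) and in the accessory lists (grey), with the median as a black bar and the quartiles of all tested genes, -0.30 to 0.26, as a band. The desaturases span from -1.01 to 1.24, and the medians of the member groups lie between 0.15 and 0.42.

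Other genes of the pathway were taken from 4 lists of textbook members, also chosen with earlier results of these data known. Of the 16 genes that process SREBPs, 8 rose (50%) and 3 fell (18.8%), with a median log2 fold change of 0.14. As given above, 25.8% of all tested genes and 40.3% of the abundant ones were higher, and 22.1% and 26.9% were lower, so the share of this list that rose lay nearer to that of abundant genes. Both proteases that release the active factor rose. MBTPS1 had 3360, 3351 and 3280 counts in OV3/SCR and 4484, 4379 and 4797 in OV3/COX1KD (log2 fold change 0.48, SE 0.031), and MBTPS2 had 524, 514 and 530 against 775, 729 and 848 (0.62, SE 0.055). The ubiquitin ligases RNF139 and RNF145 rose by 0.66 and 0.57, with SEs of 0.044 and 0.033. None of the libraries of these 4 genes overlapped between the conditions.

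Of 16 genes of isoprenoid use and sterol accessory functions, 9 rose (56.2%, against 25.8% of all tested genes and 40.3% of abundant ones) and 2 fell (12.5%, against 22.1% and 26.9%), with a median of 0.22. COQ2, an enzyme of ubiquinone synthesis, rose by 0.56 (SE 0.040), the heme-binding membrane protein PGRMC1 by 0.53 (SE 0.036), and TMEM97 by 0.49 (SE 0.036).

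Of 19 genes of sterol uptake, export and storage, 17 were tested, and the median log2 fold change was 0.0049, close to that of all tested genes. The 7 that rose were 41.2%, against 25.8% of all tested genes and 40.3% of abundant ones, and the 3 that fell were 17.6%, against 22.1% and 26.9%, so the share that rose was near that of abundant genes. With total count scaling 3 rose. LRP1, a lipoprotein receptor, had 920, 970 and 1007 counts in OV3/SCR and 2339, 1683 and 2347 in OV3/COX1KD, a log2 fold change of 1.17 (SE 0.083). MYLIP, a ubiquitin ligase for lipoprotein receptors, rose by 0.74 (SE 0.068), and the cholesterol exporter ABCA1 by 0.68 (SE 0.064). LIPA, the lysosomal acid lipase, had 813, 746 and 766 counts in OV3/SCR and 517, 517 and 554 in OV3/COX1KD and fell by 0.52 on the log2 scale (SE 0.053).

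Of 33 accessory genes of fatty acid metabolism, 31 were tested, with a median of 0.22. Of these 17 rose (54.8%, against 25.8% of all tested genes and 40.3% of abundant ones) and 6 fell (19.4%, against 22.1% and 26.9%). SCD5, the paralog of SCD, rose by 0.95 (SE 0.035), from 1834 to 1963 counts in OV3/SCR to 3374 to 3742 in OV3/COX1KD. THRSP, a lipogenic regulator, rose by 0.80 (SE 0.078), and DGAT2, which makes triacylglycerol, by 0.73 (SE 0.090). ACSL5, an acyl-CoA synthetase, had 117, 89 and 121 counts in OV3/SCR and 31, 36 and 30 in OV3/COX1KD, a log2 fold change of -1.72 (SE 0.18).

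The genes around each member were compared with it, since the conditions were different clones of a cancer line. Among tested genes within 2 Mb whose mean log2 CPM was 1 or more, the median log2 fold change per member ranged from -0.11 to 0.52, and it was within 0.1 of 0 for 24 of the 31. For the 9 members called beyond 0.5, it lay between -0.065 and 0.15. None of the 38 neighbors of SCD, the 59 of FADS2 or the 8 of INSIG1 changed as far as that gene in its direction, while 2 of the 109 neighbors of TM7SF2 and 1 of the 42 of SREBF1 did. PMVK and FDPS share most of their neighbors, as do FADS1 and FADS2.

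For the other 7 members the median of the surrounding genes was further than 0.1 from 0. The 19 neighbors of HMGCS1 had a median log2 fold change of 0.52, above its own 0.37, and 12 of them were at least as high as HMGCS1. The 22 neighbors of SQLE had a median of 0.23, and 5 were at least as high. The 13 neighbors of ELOVL6 had a median of 0.21, and 6 were at least as high. ACACA, INSIG2 and MVK also had neighbor medians above 0.1, at 0.15, 0.36 and 0.13, and DHCR7 had one of -0.11. The part of these regions in the results was not tested. Genes of the accessory lists, RNF139 among them, were not compared with their neighbors.

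**Figure D5:**
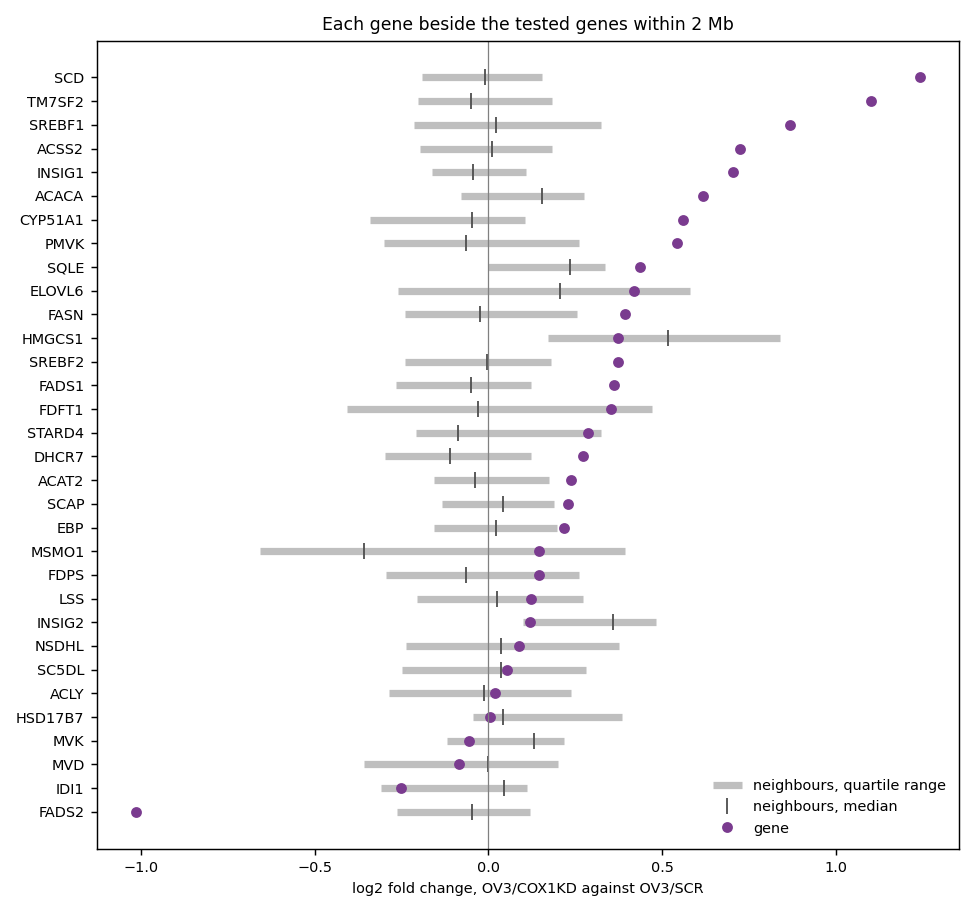
Log2 fold change (horizontal axis) of each gene (point) beside the quartile range (grey bar) and median (tick) of the tested genes within 2 Mb. SCD, TM7SF2 and FADS2 lie far outside their neighbors' quartile ranges, whereas HMGCS1 lies inside its range.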

How the data were processed

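RNA-seq was made from 3 OV3/SCR and 3 OV3/COX1KD cultures with an Illumina TruSeq kit. Per the labels, the authors aligned reads to hg19 (GRCh37) with TopHat2 2.0 and used HTSeq and DESeq2. They deposited raw read counts per gene, which were used as they stand. The annotation and strand setting of the counting are not given in the sources used here. No column belonged to other samples.

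The test used edgeR 4.0.16 under R 4.3.3, with TMM scaling, filterByExpr, and glmQLFit with glmQLFTest, condition as the only factor, with Benjamini-Hochberg adjustment (FDR, threshold 0.01) over the 17309 genes kept. The common dispersion was 0.00103. Standard errors are the log2 fold change divided by the square root of F. Library pairs of 1 condition differed by more than sampling noise. Scripts were tested on simulated data. The members and lists were chosen with earlier results of these data known. Every member is named, with PTGS1, the up to 4 largest called changes of each accessory list at a mean log2 CPM of at least 1, genes over at least 10% of a member's exons, and pseudogenes by symbol. A gene that this rule names in 1 accessory list is not reported here.

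Coordinates and exon lengths come from GENCODE lifted to GRCh37 (ACACA by symbol), and promoters from RefSeq (GRCh38.p14). The alternatives were RLE factors, total count scaling, no filter, a minimum of 10 counts per library, the DESeq2 1.42.0 test, a replicate block, each library left out, and an FDR threshold of 0.05. The ratios and the abundance background were added after seeing the data.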

Additional observations from a re-analysis of the deposited data

How the results depend on the processing

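Each of the 24 called members kept its direction under every setting tried. Of the 7 not called, HSD17B7 (-0.073 to 0.086), SC5DL (-0.026 to 0.088) and ACLY (-0.059 to 0.066) changed sign between settings. The counts of members called higher stayed between 20 and 22 and those called lower between 2 and 3, with 6 to 8 rising by over 0.5. Total count scaling moved the SREBP processing genes called lower from 3 to 5 and the sterol traffic genes called higher from 7 to 3. In the isoprenoid list the number called lower ranged from 1 to 2 over the fits that each left out a library, and it was 1 without OV3/SCR replicate 3 or without OV3/COX1KD replicate 1. With total count scaling FDPS, LSS and MSMO1 were not called and MVD was called lower (-0.16, FDR = 0.00847), and without OV3/SCR replicate 2 LSS (FDR = 0.0130) and MSMO1 (FDR = 0.0116) were not called. The labels speak of replicate pairs without saying that a number marks a shared day. Across genes, the deviations of same-numbered libraries from their condition's mean had correlations of 0.0015, 0.0483 and 0.0227. Those of differently numbered libraries lay between -0.0422 and 0.0205. These values do not settle whether the numbers mark pairs, and the main test did not assume pairing. With the replicate block 22 members were higher and 2 lower, and the block changed no call. Low counts limit CYP51A1 and HSD17B7, the members with the fewest counts, and 3 cultures of 1 clone per condition limit all results.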
